A study of Mus musculus with 1 sample.

Results

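To describe the transcription factors that mark cortical inhibitory interneurons at birth, sc-RNA Seq of the WT cortex was analysed for 8 genes: Dlx1, Dlx2, Dlx5, Lhx6, Maf, Prox1, Sp8 and Sp9. The genes were chosen by symbol, and all 8 were found among the 51912 genes listed. Their levels and their combinations in the same cell were read in cells with at least 2 unique molecular identifiers (UMIs, each 1 captured transcript) of Gad1 plus Gad2, the enzymes that make the transmitter GABA, and in all other cells. These cells are called the Gad gate. The rule used the Gad UMIs of a cell and none of the 8 factors.

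Most inhibitory interneurons of the cortex are born outside it, in the ganglionic eminences of the ventral forebrain, and migrate in. Dlx homeobox factors act in precursors and young neurons of all the eminences, while Lhx6, a LIM homeobox factor downstream of Nkx2-1, acts in cells from the medial eminence that become Sst or Pvalb interneurons. Prox1 and Sp8 are best known in cells from the caudal eminence and, for Sp8, the lateral eminence, which also makes striatal neurons and neurons of the olfactory bulb.

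The data came from 1 library of WT C57BL/6 mice taken at P0, the day of birth, labelled as cerebral cortex in the tissue field and as telencephalic in the sample title. The design text speaks of triplicates, but the number of animals in this library was not stated, and the knock-in mice of the study were not analysed here. The library held 11062 cells and 90346034 UMIs, with 500 to 92061 UMIs in a cell. As there was a single library, no value has a replicate check and no test between groups was made. Intervals in brackets are 95% intervals, exact except for differences between shares, and cover counting error only.

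The Gad gate held 682 of the 11062 cells (6.17%, 5.72 to 6.63). The share depended on the limit, at 12.8% with at least 1 Gad UMI and 2.48% with at least 5. The label of the gate was checked against the other genes of GABA handling. Slc32a1, the vesicular GABA transporter, had a UMI in 40.0% of gate cells and in 1.61% of other cells. C1qb and Cldn5, markers of microglia and of endothelium, had 0 and 2 UMIs in the gate, and a count of 0, read as up to 3 counts, allows up to 0.534 CPM there (CPM, UMIs per 1000000 UMIs outside mitochondrial genes). These 2 markers were found in only 0.414% and 0.906% of other cells, so their near absence shows little. However, marker rules for other cell types, which may overlap, were met in the gate. Those for radial glia or astrocytes, newborn excitatory neurons and oligodendrocyte precursors held 52, 33 and 15 gate cells (7.62%, 4.84% and 2.20%). Outside the gate they held 630, 195 and 293 of 10380 cells. Of all gate cells, 187 (27.4%, 24.1 to 30.9) held at least 3 UMIs of Neurod2 plus Neurod6, which mark excitatory neurons. Their median depth was 13573 UMIs, against 5115 in the other 495 gate cells. No doublet caller was run, and the part that paired cells or free RNA had in these barcodes was not tested.

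All 8 factors were far more abundant in the Gad gate than in other cells. Levels are CPM of the UMIs summed over cells, and since 3′ counts are not scaled by transcript length they were compared between cells and not between genes. The ratio of the gate to other cells ran from 15.9 to 51.1 with a median of 38.2, whereas the median over the 14840 genes with at least 100 UMIs was 1.001. All 8 passed 10-fold, as did 63 or 0.425% of all genes compared, and 640 or 4.31% passed 2-fold. In all, 6384 of the 9492 UMIs of the factors lay in gate cells (67.3%, 66.3 to 68.2). This share and the ratios depended on the gate: with at least 5 Gad UMIs the share was 39.1%, and with UMIs of both Gad1 and Gad2 the ratio fell to 21.4 for Dlx1 and 24.8 for Sp9.

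The Dlx genes encode the homeobox factors at the head of the inhibitory programme. Dlx1 reached 289.6 CPM (275.7 to 304) in the gate and 7.75 CPM (7.15 to 8.38) elsewhere, a ratio of 37.4 (34.1 to 41.1). Dlx2, its neighbour and close relative, stood at 145 CPM (135 to 155) against 3.72 CPM, a ratio of 39.0 (34.1 to 44.7). Dlx5 stood at 82.4 CPM (75.1 to 90.3) against 1.61 CPM, a ratio of 51.1 (42.0 to 62.5). At least 1 UMI of Dlx1, Dlx2 or Dlx5 was found in 515 gate cells (75.5%, 72.1 to 78.7), and UMIs of all 3 in 156 (22.9%, 19.8 to 26.2). The share with any of the 3 was 47.1% with at least 1 Gad UMI and 92.3% with at least 5. It was 55.5% when cells were thinned to 2000 UMIs.

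Among the other factors, Lhx6 stood at 115.9 CPM (107.1 to 125.1) in the gate against 5.49 CPM, a ratio of 21.1 (18.7 to 23.8). Maf, a basic leucine zipper factor active in the same medial lineage and in macrophages, stood at 248.8 CPM (235.9 to 262.2) against 11.97 CPM, a ratio of 20.8 (19.1 to 22.6). Prox1, a homeobox factor of caudal interneurons and of several glial and granule cells, had the lowest ratio of the 8 at 15.9 (13.6 to 18.6), from 61.0 CPM (54.8 to 67.9) against 3.83 CPM. These 3 genes therefore left the largest shares of their UMIs outside the gate, with 59.3%, 59.0% and 52.4% of UMIs inside it. The zinc finger factors Sp8 and Sp9 lay at the other end. Sp8 stood at 60.5 CPM (54.2 to 67.3) against 1.21 CPM, a ratio of 50.1 (39.9 to 63.4). Sp9 stood at 133 CPM (124 to 143) against 2.70 CPM, a ratio of 49.3 (42.4 to 57.6).

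**Figure D1:**
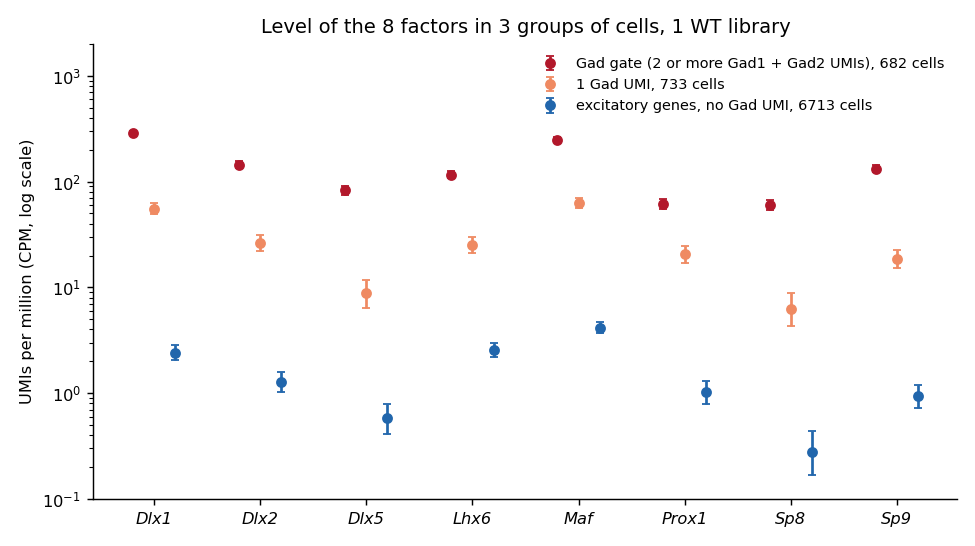
Level of each factor in CPM (log scale) in 682 Gad gate cells, 733 cells with 1 Gad UMI and 6713 cells with excitatory genes and no Gad UMI; points are summed levels and bars are exact 95% counting intervals. For all 8 factors the gate is highest and the excitatory cells are lowest, with no overlap of intervals.

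To see how much of the signal could be present in cells that should lack these factors, the 6713 cells with at least 3 UMIs of Neurod2 plus Neurod6 and no Gad UMI were used as a background. There the levels were 0.464% of the gate level for Sp8 to 2.22% for Lhx6. Cells with a UMI made up 64.5% of the gate and 2.22% of these excitatory cells for Dlx1, and 32.0% and 2.41% for Lhx6. The values were 49.0% and 3.72% for Maf and 23.9% and 0.238% for Sp8. Excitatory cells were the deeper ones, with a median of 9163 UMIs against 6331 in the gate. After each cell was thinned to 2000 UMIs, which left out 89 gate cells and 244 excitatory cells, Dlx1 was found in 42.7% (38.6 to 46.8) of 593 gate cells and 0.649% of 6469 excitatory cells. Over the 8 factors the thinned shares ran from 8.77% (Prox1) to 42.7% in the gate and from 0.108% to 0.912% in excitatory cells. Thus the gate was above this background for all 8 factors at equal depth.

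The 8 factors differed in how they followed the Gad UMIs of a cell. Just outside the gate, 733 cells with 1 Gad UMI held Dlx1 in 15.6% and Sp8 in 3.14%. Just inside, 203 cells with 2 Gad UMIs held them in 39.4% and 10.3%. Dlx1 then reached 64.9% of 205 cells with 3 to 4 Gad UMIs, 82.6% of 213 cells with 5 to 9, and 83.6% of 61 cells with 10 or more. Dlx2, Dlx5, Sp8 and Sp9 likewise had their highest share in the last bin, at 73.8% (60.9 to 84.2), 68.9% (55.7 to 80.1), 44.3% (31.5 to 57.6) and 67.2% (54.0 to 78.7). These intervals overlapped those of the bin with 5 to 9 Gad UMIs. Maf did not follow this order, with 40.9%, 53.2%, 56.8% (49.9 to 63.6) and 34.4% (22.7 to 47.7) across the same bins of the gate. Its level showed the same order, at 218 CPM, 258 CPM, 297 CPM (274 to 322) and 141 CPM (114 to 173). Lhx6 was found in 23.2%, 35.1%, 38.0% (31.5 to 44.9) and 29.5% (18.5 to 42.6), where the last intervals overlap. Prox1 stayed between 17.7% and 24.6%, and neighbouring bins overlapped within their intervals. Depth moved with the Gad UMIs, from a median of 4817 UMIs at 2 to 8399 UMIs at 10 or more, and its part in these shares was not tested.

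**Figure D2:**
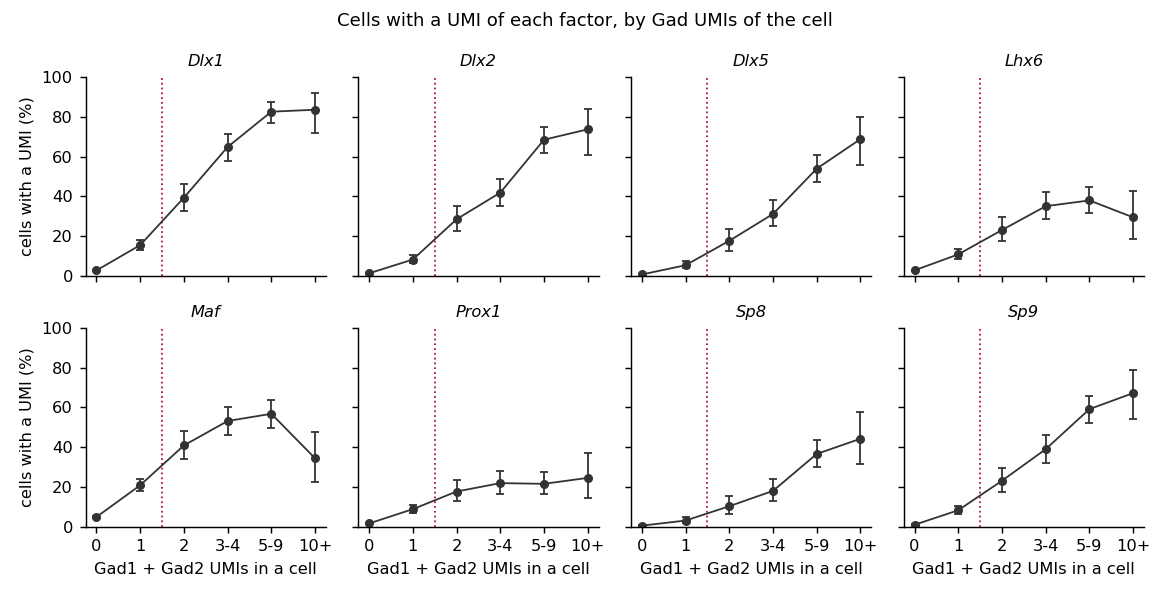
Share of cells (%) with at least 1 UMI of each factor by the number of Gad1 plus Gad2 UMIs in the cell; bars are exact 95% binomial intervals and the dotted line is the lower limit of the gate. Dlx1 climbs from 2.83% at 0 to 83.6% at 10 or more, Prox1 is flat inside the gate, and Maf is lower in the last bin.

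The 187 gate cells with excitatory genes held lower levels of every factor than the other 495 gate cells. Dlx1 was at 134.5 CPM (121 to 149) against 442.2 CPM (418.1 to 467.4), and Sp9 was at 58.8 CPM against 205.9 CPM. Prox1 differed least, at 44.8 CPM (37.3 to 53.4) against 77.0 CPM (67.1 to 87.9). Gad2 itself was at 210.6 CPM against 597 CPM in the same cells, but Gad UMIs set the gate, so this is not a separate result. A limit in UMIs admits deeper cells at a lower CPM, and median depth was 13573 UMIs against 5115. The part of depth in these levels was not tested. Without the 187 cells the ratio of gate to other cells was higher for all 8 factors, at 20.1 for Prox1 to 79.7 for Dlx5.

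Dlx1 and Dlx2 lie next to each other on chromosome 2, on opposite strands and facing each other, and Sp9 lies on the same chromosome. Since each of these factors and Sp8 was found in a larger share of gate cells with another of them than without it, start regions of these genes are shown, from 250 bases before to 50 bases after the RefSeq start (GRCm38.p6). RefSeq windows were found for 6 of the 8 genes (11 windows), with none for Dlx5 or Maf. The submitters' processing notes name mm9, so no position was taken from the count table. The letters searched on both strands were GGGCGG, which reads CCGCCC on the other strand and is the GC box that Sp family zinc fingers can bind, and also TAATTA, a core that homeodomain factors can bind, and matches are in capitals in the runs below, given as in the RefSeq table. The orientation of minus-strand windows, here that of Dlx2, was not checked against a genome. The sites share no letters, and 35.7% and 5.29% of all 32851 windows of this length hold them.
Dlx1, chr2:71529195-71529494, plus strand: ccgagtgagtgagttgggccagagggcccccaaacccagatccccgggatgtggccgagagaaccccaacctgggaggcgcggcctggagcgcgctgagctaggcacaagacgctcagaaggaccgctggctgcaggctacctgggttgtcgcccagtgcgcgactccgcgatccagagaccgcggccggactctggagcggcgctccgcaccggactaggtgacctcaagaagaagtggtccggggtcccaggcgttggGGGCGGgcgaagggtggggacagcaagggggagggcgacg
Dlx2, chr2:71546705-71547004, minus strand: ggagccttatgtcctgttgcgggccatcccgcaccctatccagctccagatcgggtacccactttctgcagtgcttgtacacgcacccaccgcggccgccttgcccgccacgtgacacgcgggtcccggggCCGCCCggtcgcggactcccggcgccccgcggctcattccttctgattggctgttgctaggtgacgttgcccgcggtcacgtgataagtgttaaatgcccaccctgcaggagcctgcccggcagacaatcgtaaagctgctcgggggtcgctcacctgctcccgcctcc
Sp9, chr2:73271676-73271975, plus strand: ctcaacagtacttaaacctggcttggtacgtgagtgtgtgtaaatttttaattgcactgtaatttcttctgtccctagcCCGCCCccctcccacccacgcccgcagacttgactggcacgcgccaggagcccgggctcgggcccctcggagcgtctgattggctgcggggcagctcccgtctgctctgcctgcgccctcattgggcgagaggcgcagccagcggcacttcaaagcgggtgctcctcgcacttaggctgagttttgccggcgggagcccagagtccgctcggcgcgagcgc
Sp8, chr12:118846983-118847282, plus strand, the middle of 3 starts: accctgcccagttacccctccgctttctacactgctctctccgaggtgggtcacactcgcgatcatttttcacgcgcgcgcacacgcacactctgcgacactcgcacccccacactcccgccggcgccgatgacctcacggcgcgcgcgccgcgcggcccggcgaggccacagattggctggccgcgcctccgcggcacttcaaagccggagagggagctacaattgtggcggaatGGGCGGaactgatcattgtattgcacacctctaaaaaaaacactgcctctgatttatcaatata
Sp8, chr12:118847309-118847608, plus strand, the last of 3 starts: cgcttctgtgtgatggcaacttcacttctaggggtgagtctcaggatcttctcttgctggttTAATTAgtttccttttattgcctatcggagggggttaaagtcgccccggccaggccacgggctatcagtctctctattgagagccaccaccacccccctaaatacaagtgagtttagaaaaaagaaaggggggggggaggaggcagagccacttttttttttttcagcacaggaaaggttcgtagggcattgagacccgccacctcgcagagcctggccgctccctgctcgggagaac

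Each of the first 4 windows holds 1 GGGCGG match on either strand and no TAATTA, and the last Sp8 window holds 1 TAATTA and no GGGCGG. Of the 6 windows not shown, the first of Sp8 holds neither, those of Prox1 hold 2 and 1 GGGCGG, and those of Lhx6 hold 1, 1 and 0, so GGGCGG is not particular to the genes shown. The share of G and C was 69.3% for Dlx1, 66.3% for Dlx2, 63.7% for Sp9 and 61% and 53% for the Sp8 windows. A match is a description of letters and not a measured binding site.

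The 8 factors form 28 pairs, and each was read in both orders as the share of gate cells with factor B among cells with and without factor A. In 17 pairs the share was higher with the partner in both orders, in 3 it was lower, and in 8 the interval of a difference held 0. At 2000 UMIs per cell, 13 of the 17 and all 3 lower pairs kept their direction with an interval clear of 0. The 4 pairs that did not were Dlx1 with Maf, Dlx2 with Maf, Maf with Prox1, and Prox1 with Sp8. Of these, Dlx2 with Maf turned from 7.59 to -4.64 points for Maf in Dlx2 cells and to -4.40 points for Dlx2 in Maf cells, and the other 3 stayed above 0 with intervals that held it.

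The Dlx genes, Sp8 and Sp9 formed a block of pairs with higher shares in each other's presence. Dlx2 was found in 66.1% of Dlx1 cells and in 18.2% of gate cells without Dlx1, and at 2000 UMIs the values were 43.9% and 15.6%. Sp9 was found in 63.8% of Dlx5 cells against 30.6% of the rest. In the 163 Sp8 cells, Dlx1 was found in 93.9%, Dlx2 in 77.3%, Sp9 in 70.6% and Dlx5 in 62.0%. Gate cells without Sp8 held the same genes in 55.3%, 40.3%, 34.5% and 30.1%. The differences of the 10 pairs of this block stayed clear of 0 at 2000 UMIs, with Sp9 in 40% of Sp8 cells against 21.5%. When the gate itself was set on the thinned UMIs, the difference of Sp9 with Dlx5 fell to 13.3 points and its interval held 0 (-0.18 to 27.1). Outside this block, Prox1 also had higher shares with Dlx1 and Dlx2 at both depths, but not with Dlx5 or Sp9, where the interval held 0. Dlx1 was found in 86.6% of Prox1 cells against 58.7% of the rest, and in 61.5% against 40.9% at 2000 UMIs. The interval for Dlx1 with Prox1 held 0 under an alternative listed at the end.

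Lhx6 paired with Maf. Of the 218 Lhx6 cells, 186 held Maf (85.3%), against 31.9% of the 464 gate cells without Lhx6, a difference of 53.4 points (46.5 to 59.2). At 2000 UMIs it was 38.6 points (28.6 to 47.7). In contrast, Prox1 was found in 10 Lhx6 cells (4.59%) against 28.4% of the rest, and Sp8 in 7 (3.21%) against 33.6%. The difference for Prox1 was -23.9 points (-28.6 to -18.5), -7.69 points (-11.2 to -2.36) at 2000 UMIs and -9.64 points with an interval that held 0 (-16.1 to 1.37) when the gate was set on the thinned UMIs. Prox1 or Sp8 was found in 16 Lhx6 cells (7.34%, 4.25 to 11.6), whereas 231 cells without Lhx6 held either (49.8%, 45.1 to 54.4). At 2000 UMIs the values were 4 of 116 (3.45%, 0.947 to 8.59) and 124 of 477 (26.0%, 22.1 to 30.2). The 16 cells had a median of 7110 UMIs, and 5 of them held excitatory genes. For Lhx6 with Dlx1, Dlx2, Dlx5 and Sp9 the interval of the difference held 0. Dlx1 was found in 67.9% of Lhx6 cells against 62.9% of the rest (-2.79 to 12.3 points), and Sp9 in 42.7% against 43.3% (-8.49 to 7.32 points). Both differences changed direction with the gate. With at least 1 Gad UMI they were 24.8 points (18.5 to 30.9) for Dlx1 and 16.3 points (10.4 to 22.3) for Sp9, and with at least 5 they were -15.8 points (-26.1 to -6.26) and -17.9 points (-29.6 to -5.84).

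Maf was also found without Lhx6. Prox1 cells held Maf in 57.0%, against 46.9% of gate cells without Prox1, a difference of 10.2 points (0.951 to 19.1) that held 0 at 2000 UMIs (11.2 points, -1.67 to 25.2). Sp8 cells held Maf in 32.5% against 54.1%, a difference of -21.6 points (-29.6 to -13.0) at all UMIs and of -14.6 points (-22.5 to -4.41) at 2000 UMIs. It was -0.629 points (-7.59 to 6.90) with at least 1 Gad UMI and -42.3 points (-52.2 to -30.6) with at least 5. Between themselves, Sp8 was found in 40.8% of Prox1 cells and 19.4% of the rest at all UMIs. At 2000 UMIs these shares were 17.3% and 14.05%, with an interval of the difference from -5.28 to 16.0 points. With the gate set on the thinned UMIs the difference was -7.52 points, and its interval held 0.

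**Figure D3:**
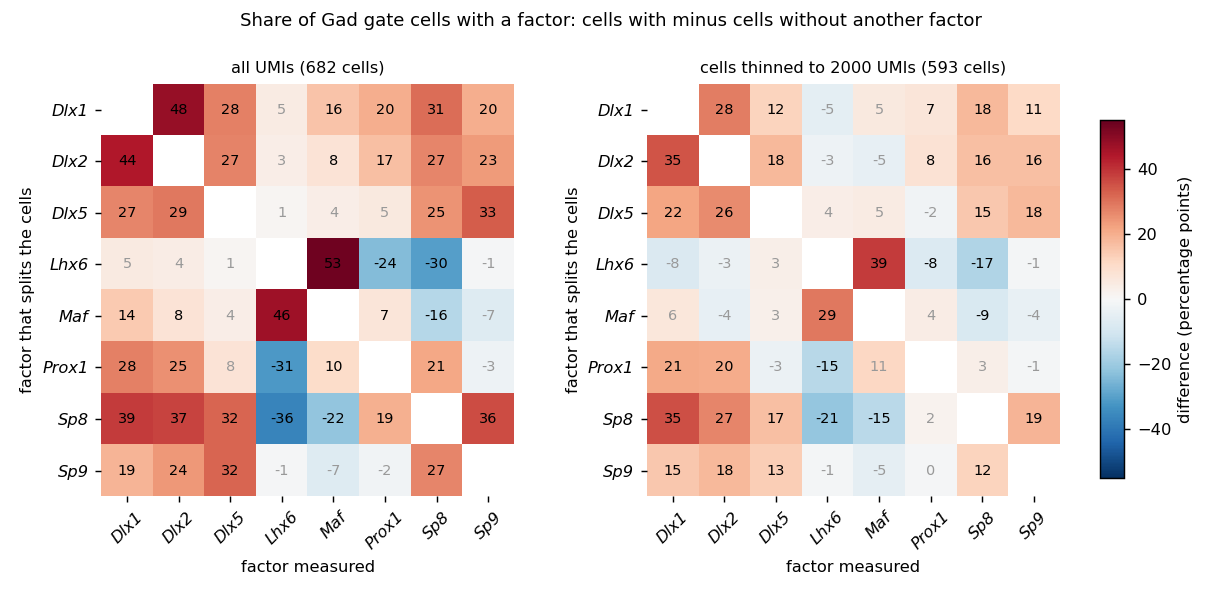
Difference in percentage points between the share of cells with the factor in the column among gate cells with and without the factor in the row, at all UMIs (left, 682 cells) and at 2000 UMIs per cell (right, 593 cells); grey numbers have an interval that holds 0. Lhx6 with Maf is the largest positive difference, and the negative differences in black are those of Lhx6 with Prox1 and Sp8 and of Maf with Sp8, in both panels.

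Counted over all 8 factors, gate cells held a median of 3 of them, and 533 (78.2%) held at least 2. At most 7 were found in a cell, in 11 cells. Of 256 possible combinations 122 occurred, 40 of them in a single cell. The most common was no factor at all, in 82 cells (12.02%, 9.68 to 14.7). Next came Dlx1, Dlx2, Dlx5, Sp8 and Sp9 together in 38 cells (5.57%, 3.97 to 7.57), then Dlx1, Dlx2, Lhx6 and Maf in 25 (3.67%) and Dlx1, Lhx6 and Maf in 23 (3.37%). All 13 combinations with at least 13 cells held either Lhx6 or Sp8 or neither, and none held both. Cells with a single factor were shallow when it was Dlx1 (13 cells, median 1613 UMIs) or Maf (18 cells, 2332 UMIs), against 8251 UMIs in the cells with Dlx1, Dlx2, Lhx6 and Maf.

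**Figure D4:**
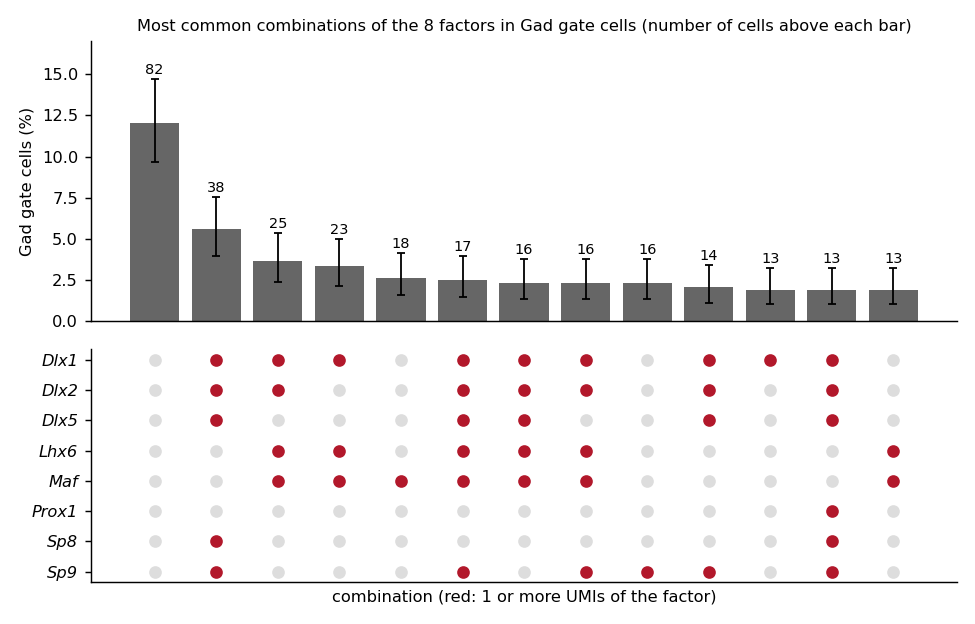
Share of the 682 Gad gate cells (%, exact 95% intervals, number of cells above each bar) with each of the most common combinations, whose factors are the red dots in the column below. After 82 cells with no factor come 38 cells with Sp8 and Sp9 beside the Dlx genes, and no column holds both Lhx6 and Sp8.

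The 82 gate cells with none of the factors had a median of 6130 UMIs against 6390 in the 600 with a factor, and a lower quartile of 1179 UMIs against 4130. They held Slc32a1 in 13.4% against 43.7%. Excitatory genes were present in 45 of them (54.9%), against 142 of the 600 (23.7%). Among genes found in at least 25% of the 82 cells, those with the largest ratio, with 10 CPM added on both sides, were Eomes (151.9 CPM against 16.2 CPM), the somatostatin receptor Sstr2 (141.7 CPM against 16.4 CPM), Sema3c and Neurod1. Eomes and Neurod1 are known from intermediate progenitors and young excitatory neurons. The share of mitochondrial UMIs was 3.95% in these cells and 3.34% in the rest.

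To compare the cells on either side of the Lhx6 division, 202 gate cells with Lhx6 and neither Prox1 nor Sp8 (median 7714 UMIs) were set beside 231 with Prox1 or Sp8 and no Lhx6 (median 6062 UMIs). Lhx6, Prox1 and Sp8 made the split and are not results here. Of the other 5 factors, Maf was higher by at least 2-fold in Lhx6 cells, at 501.4 CPM against 139 CPM (3.60-fold, 3.15 to 4.13). Dlx1, Dlx2 and Sp9 were higher by at least 2-fold in Prox1 or Sp8 cells, by 2.77-fold (2.44 to 3.15), 2.17-fold (1.83 to 2.58) and 2.20-fold (1.82 to 2.66), and Dlx5 by 1.60-fold (1.29 to 1.99). Over the 8521 genes with at least 50 UMIs, 5.63% were at least 2-fold higher in Lhx6 cells and 6.18% in Prox1 or Sp8 cells.

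The division carried further genes of the medial programme. Of 10 listed genes of that lineage with enough UMIs, 6 were at least 2-fold higher in Lhx6 cells and 1, Etv1, was at least 2-fold higher in the others. Nxph1, a secreted neurexin ligand, had 958 UMIs against 26 (39.2-fold, 26.6 to 60.4). The peptide gene Sst had 1569 UMIs against 6, and was found in 44.6% of Lhx6 cells and 2.16% of the others. Satb1 (3.62-fold) and Sox6 (2.71-fold), factors of medial interneuron maturation, lay on the same side. Pvalb had 0 UMIs in both groups, Nkx2-1 had 12 against 0, and the peptide gene Cort, chosen after its values were seen, had 133 against 0. Of the 8 shared genes of interneurons, 2 were at least 2-fold higher in each group, with the chemokine receptor Ackr3 at 63 UMIs against 2 in Lhx6 cells.

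Genes of the caudal programme were divided. Of 9 listed genes with enough UMIs, 3 were at least 2-fold higher in Prox1 or Sp8 cells: the RNA editing relative Adarb2 (859 UMIs against 10, 80.7-fold, 43.7 to 168.9), the serotonin receptor Htr3a (155 against 1) and the peptide gene Vip (129 against 1, from 5.63% of these cells). Reln and Npas3, of the same list, were instead higher in Lhx6 cells, by 2.43-fold (1.98 to 2.99) and 2.06-fold (1.74 to 2.43). The nuclear receptor gene Nr2f2 was at 112 CPM in Lhx6 cells against 119 CPM (0.943-fold, 0.78 to 1.14). However, it was found in 16.3% of Lhx6 cells (11.5 to 22.2) and 35.1% of Prox1 or Sp8 cells (28.9 to 41.6). Of 17 listed lateral and striatal genes 5 had enough UMIs, and 3 of these were at least 2-fold higher in Prox1 or Sp8 cells: Pax6 by 20.9-fold (12.2 to 38.6), Meis2 by 6.22-fold (5.36 to 7.25) and Tshz1 by 2.54-fold (1.96 to 3.32). The striatal genes Isl1 and Ebf1 had 9 and 31 UMIs in these cells, under the minimum for a comparison. These UMIs came from 0.433% and 1.73% of the cells. In the 233 gate cells with none of Lhx6, Prox1 and Sp8, Isl1 and Ebf1 had 41 and 152 UMIs. Cell cycle genes were higher in Prox1 or Sp8 cells, with Top2a at 580 UMIs against 33 (16.5-fold, 11.6 to 24.2) and Mki67 at 339 against 20. These came from 16.9% and 16.5% of the Prox1 or Sp8 cells.

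For several listed genes, Prox1 and Sp8 cells were in turn unlike each other. No share over all genes was computed for this split. In the 75 cells with Prox1 only, Maf was at 194.9 CPM (164.6 to 229), against 53.5 CPM (38.0 to 73.1) in the 99 with Sp8 only (3.64-fold, 2.54 to 5.33). Sp9 was the reverse, at 55.7 CPM (40.1 to 75.3) against 305.8 CPM (267 to 348.7), and so was Dlx5, at 47.7 CPM (33.4 to 66.1) against 183.8 CPM (154 to 217.6). Nr2f2 (3.84-fold), Npas1 (5.98-fold), Reln (4.89-fold) and Adarb2 (1.81-fold) were higher with Prox1, and Meis2 (2.68-fold), Pax6 (3.46-fold) and Etv1 (3.87-fold) with Sp8. Other listed genes differed little. For Prox1 over Sp8 cells, Htr3a (0.889-fold, 0.583 to 1.35) and Npy (1.28-fold, 0.976 to 1.67) had intervals that held 1, and Nr2f1 was at 1.21-fold (1.06 to 1.39). Vip had 124 UMIs in 9 of the Prox1 cells and 1 UMI in the Sp8 cells. The 57 cells with both lay between them for Sp9 (217.8 CPM, 179.3 to 262) and were close to the Prox1 cells for Maf (178.9 CPM, 144.2 to 219.4). Median depth was 7062 UMIs with Prox1 only, 5291 with Sp8 only and 7609 with both.

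The factors were also read in gate cells chosen without them, by overlapping rules on the UMIs of marker genes. In the 90 cells with at least 2 Sst UMIs, Lhx6 was found in 91.1% (277 CPM, 246 to 311) and Maf in 87.8% (409 CPM, 371 to 449), while Prox1 was found in 2 and Sp8 in 0, which, read as up to 3 counts, allows a share of cells with a UMI of up to 3.33%. In the 150 cells with at least 2 Adarb2 UMIs, Lhx6 was found in 4 (3.32 CPM, 0.906 to 8.51), Prox1 in 52.7% (204 CPM, 180 to 232), Sp8 in 40.7% and Maf in 60%. The median depths of these groups were 10592 and 5132 UMIs. The 16 Vip cells held Maf in 15, Prox1 in 12 and Sp9 in 2. Among 305 cells with at least 2 UMIs of Meis2, Sp9 was found in 55.4% and Maf in 22.6%. Excitatory genes were held by 137 of these cells, whose median depth was 8625 UMIs. Meis2 itself was at 536 CPM in the gate and 451 CPM in other cells. Among 112 cells with at least 3 UMIs of Foxp1, Ebf1 and Isl1 summed, Sp9 was found in 49.1% and Dlx1 in 48.2%. These genes are known from striatal neurons, but Foxp1 made up most of their UMIs in the gate (2231, against 184 of Ebf1 and 50 of Isl1) and its level was higher in other cells. The last group was deep, with a median of 16271 UMIs, and 76 of its cells held excitatory genes. In 48 dividing gate cells, with at least 3 UMIs of Mki67 plus Top2a, Dlx1 was found in 81.2%, Dlx2 in 77.1% and Sp9 in 72.9%. The level of Dlx1 was 536 CPM (478 to 600.1), and those of Lhx6 and Maf were 7.08 CPM (1.93 to 18.1) each. Lhx6 and Maf, in contrast, were found in 2 and 4 of these cells, whose median depth of 11069.5 UMIs was above that of the gate.

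**Figure D5:**
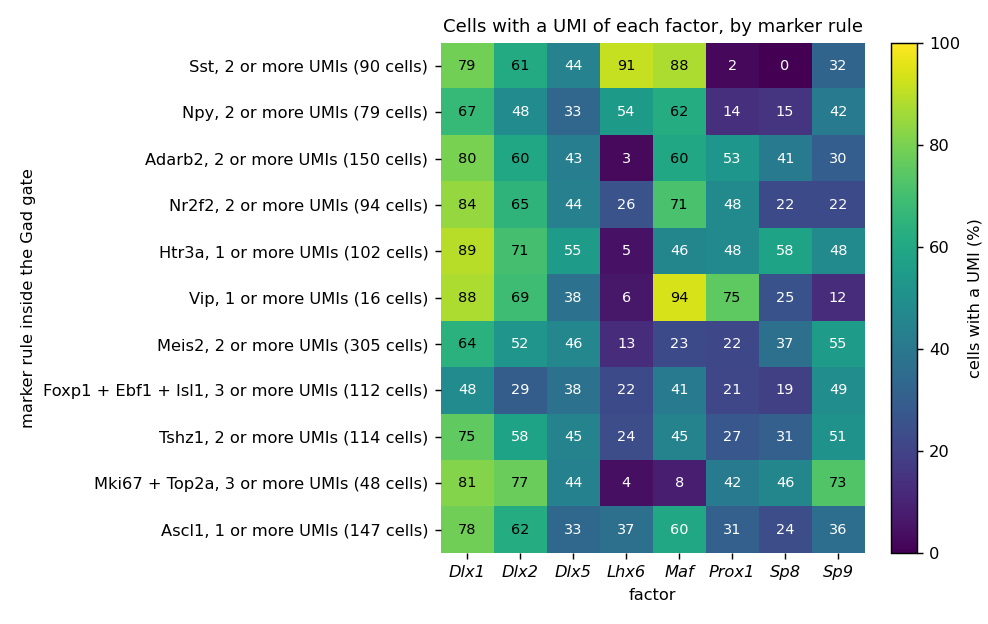
Share of cells (%) with at least 1 UMI of each factor in 11 overlapping groups of Gad gate cells, each chosen by UMIs of the marker genes named at the left with the number of cells. Lhx6 and Maf are bright in Sst cells and dark in dividing cells, where Dlx1, Dlx2 and Sp9 are bright.

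Other genes at the Dlx loci followed the factors. Dlx6, the partner of Dlx5, had 202 UMIs in the gate and 73 elsewhere (40.0-fold, 30.5 to 53.0), and the long noncoding transcripts Dlx6os1 (40.6-fold) and Dlx1as (33.4-fold) were similar. Dlx3 and Dlx4, known from skin and placenta, had 0 UMIs in the gate. Dlx6os1 and Dlx1as overlap Dlx6 and Dlx1, and as the counting was not stated to use strand, their reads may not be separable. Of the 8 shared genes of interneurons, 6 were at least 2-fold higher in the gate, among them the receptor Erbb4 (22.0-fold, 19.6 to 24.7) and the transcription factor Npas1 (20.4-fold). Of the genes listed for 1 lineage, 6 of 11 medial, 6 of 10 caudal and 6 of 13 lateral and striatal genes with enough UMIs were at least 2-fold higher in the gate, against 4.31% of all genes compared. Within each list in turn, the highest ratios were those of Sst (30.7-fold) and Tac1 (87.4-fold), Vip (42.1-fold) and Htr3a (26.9-fold), and the retinoid receptor gene Rxrg (13.3-fold). Tac1 was not tied to Lhx6, with 89 UMIs in 8 gate cells that held none of Lhx6, Prox1 and Sp8. It had 38 UMIs in 12 cells with Lhx6 and neither Prox1 nor Sp8. Other members of these lists were lower in the gate, among them Nos1 (0.377-fold) and Npy (0.564-fold), Calb2 (0.473-fold) and Cck (0.536-fold), and Zic1 (0.248-fold), Drd1 (0.555-fold) and Foxp1 (0.761-fold). Slc32a1 was 31.1-fold higher.

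By Pearson correlation of log2 values per cell over the 682 gate cells, the genes most like each factor included Nxph1 for Lhx6 (r = 0.602) and for Maf (0.465), and Adarb2 (0.456) for Prox1. For Dlx1 they included the noncoding transcripts Sox2ot (0.467) and Dlx6os1 (0.447), and for Dlx5 Dlx6os1 (0.3635). Sp8 was most like the antiproliferative gene Btg1 (0.503) and Sp9 most like Tiam2 (0.488). Dlx2 was most like the cyclin gene Ccnd2 (0.390) and Cdca7 (0.388). These cells share 1 library and differ in depth, and the values describe likeness only.

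Outside the gate, 8788 of 10380 cells (84.7%) held none of the factors, 1255 held 1, and 127 (1.22%, against 65.4% of gate cells) held 3 or more. The 127 cells stood out for other inhibitory genes. Slc32a1 was found in 36.2% of them and in 0.785% of cells without a factor, and Erbb4 in 45.7% and 2.51%. Many held 1 Gad UMI, the most a cell outside the gate can hold. Gad1 was found in 18.9% of them and Gad2 in 42.5%, against 1.34% and 3.56% of cells without a factor. Their median depth was 4785 UMIs against 7298.5. In contrast Neurod2 was found in 33.1% of them against 79.1%. Outside the gate, the share of a factor was higher with its partner than without it in both orders for 26 of 28 pairs, and the interval held 0 for Lhx6 with Prox1 and Lhx6 with Sp8, at 4 cells each.

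Some factors were also found in cells outside the gate chosen by markers of other cell types. Maf was found in 13 of 30 microglia-rule cells (43.3%, 25.5 to 62.6) at 250 CPM (177 to 344), close to its level in the gate, and in 11 of 26 endothelial-rule cells (42.3%, 23.4 to 63.1). Excitatory-rule cells outside the gate held Maf in 4.12%. Prox1 was found in 61 of 293 cells of the oligodendrocyte precursor rule (20.8%, 16.3 to 25.9; 27.6 CPM, 21.6 to 34.6), in 33 of 169 dividing cells (19.5%, 13.8 to 26.3) and in 21 of 195 Eomes cells (10.8%, 6.79 to 16.0), against 1.06% of excitatory-rule cells (1.28 CPM). Dlx1 and Dlx2 were found in 27 and 23 of the dividing cells (16.0% and 13.6%), where Dlx5 was found in 2. Median depths were 2689 UMIs for the microglia rule, 8038 for the precursor rule, 11523 for dividing cells, 7382 for Eomes cells and 9190.5 for the excitatory rule. Dlx5, Lhx6 and Sp9 were each in at most 4.14% of the cells of the dividing, radial glia, precursor, Eomes and excitatory rules.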

How the data were processed

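Cells of the P0 cortex, dissociated in papain, were captured with a 10x Genomics 3′ kit (v3.1). The UMI counts per gene and cell that the authors deposited were made with Cell Ranger by a sequencing company; the submitters' processing notes name STAR, Cell Ranger 2, Seurat and mm9, and strand use in counting was not given in the sources used here. The deposited counts were analysed as they were, for all 11062 cells. No cell was removed, no clustering was done and no doublet caller was run. Cells of 1 library are not replicates, so no test was made.

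The Gad gate required at least 2 UMIs of Gad1 plus Gad2, and the excitatory rule at least 3 of Neurod2 plus Neurod6. Levels were UMIs summed over cells as CPM, with exact Poisson intervals, and shares had exact binomial (Clopper-Pearson) intervals. Ratios of levels used the conditional binomial interval and differences of shares the Newcombe interval. A gene was compared from 100 UMIs in all cells (gate against other cells) or 50 UMIs over both groups (Lhx6 against Prox1 or Sp8 cells). A UMI count of 0 was read as allowing up to 3. Cells were thinned without replacement to 2000 UMIs (4000 as an alternative, seed 1). Genes most like a factor were ranked by Pearson correlation of log2 values scaled to 10000 UMIs per cell, among genes found in at least 5% of gate cells, and up to 3 were taken per factor. Genes outside the factors were named from lists by lineage, as the largest folds of a comparison, or as said in the text. Results for a few other genes are not reported here. The members and lists were chosen with earlier results of these data known. The scripts were tested on simulated data. Alternatives were other Gad limits, a limit on genes per cell, gate cells without excitatory genes, both depths of thinning, CPM with mitochondrial genes and presence from 2 UMIs. Python 3.11.15, numpy 2.4.6, scipy 1.17.1 and matplotlib 3.10.9 were used.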

Additional observations from a re-analysis of the deposited data

How the results depend on the processing

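No paired analysis was possible because a single WT library gave all values, and for the same reason no replicate could be left out. The share of cells in the gate, 6.17%, became 12.8% with at least 1 Gad UMI, 4.33% with 3, 2.48% with 5, 3.72% with both Gad1 and Gad2, 6.73% in cells with at least 1000 genes and 4.55% without gate cells holding excitatory genes. It was 6.87% and 6.76% in cells deep enough for 2000 and 4000 UMIs, and 2.77% with the gate set after thinning to 2000. In the same order, the share of the factors' UMIs in the gate, 67.3%, became 79.7%, 56.7%, 39.1%, 45.4%, 70.8%, 61.3%, 70.6%, 74.3% and 39.2%. Gate cells with Dlx1, Dlx2 or Dlx5, 75.5%, became 47.1%, 86.6%, 92.3%, 84.0%, 80.7%, 80.2%, 55.5% and 69.5% through the 4000-UMI depth, and 57.3% when a factor counted from 2 UMIs. Lhx6 cells with Prox1 or Sp8, 7.34%, became 3.45% at 2000 UMIs, 2.99% at 4000 UMIs and 1.90% when a factor counted from 2 UMIs. The ratio of gate to other cells stayed above 1 for each factor under each alternative, from 9.37 for Prox1 to 89.2 for Sp8. For 12 differences between shares of cells with and without a partner whose interval was clear of 0, 120 values were computed under the alternatives. Of these, 1 changed sign, with Sp8 in Prox1 cells at -7.52 points (-19.0 to 10.6) when the gate was set after thinning, and in 13 the interval held 0. These 13 came from Maf with Prox1, Sp8 with Prox1, Dlx1 with Prox1, Prox1 with Lhx6, Maf with Sp8 and Sp9 with Dlx5. For Dlx1 and Sp9 in Lhx6 cells, whose intervals held 0, 8 of 20 values changed sign. The cause was not tested. Depth limited the reading of absence, as 0 UMIs of a factor does not show that the factor was absent.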
